A study of Mus musculus with 24 samples.

Results

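The genes described here code for the proteins of the cytosolic ribosome, measured by RNA-seq in mouse bone marrow-derived macrophages, which are macrophages grown from bone marrow cells with the growth factor M-CSF. A gene was taken when its symbol began with Rpl or Rps followed by a digit, or was Rpsa, Rplp0, Rplp1 or Rplp2, and when it was protein-coding. The Rps6k kinases and the pseudogenes were left out, which left 86 genes. Of these, 59 reached a mean of at least 1 CPM (counts scaled to a common library total) over the 24 libraries, out of 52636 genes in each file, and these 59 are the members. They comprise 32 proteins of the large subunit, 20 of the small subunit, the 3 proteins of the P stalk, the 3 paralogs Rpl7l1, Rps27l and Rps27rt, and Rps19bp1, which codes for a protein that binds Rps19 and is not a ribosomal subunit protein. Just inside the minimum stood Rpl36a at 1.005 CPM and Rpl39 at 1.035 CPM, and just outside stood Rpl17 at 0.971 CPM and Rpl29 at 0.794 CPM.

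The 24 libraries fall into 8 groups of 3. The genotypes are TBK1-WT ∆control, TBK1-WT ∆IKKe, TBK1-cKD ∆control and TBK1-cKD ∆IKKe, each untreated or treated for 8 h with R837 (imiquimod), an agonist of Toll-like receptor 7. TBK1 and IKKe are the IKK-related kinases encoded by Tbk1 and Ikbke. In the submitters' design text cKD stands for conditional knockout and ∆IKKe for knockout. The alleles, what drives the conditional deletion and the meaning of ∆control were not described. The protocol states that the replicates came from 3 individual mice, and it names wild-type C57BL/6N mice and R837 on every record, so genotype and treatment were taken from the titles. Ages were not given.

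A ribosome is built from a small subunit, which reads the mRNA, and a large subunit, which joins the amino acids. A flexible stalk of the acidic proteins Rplp1 and Rplp2, held by Rplp0, recruits the translation factors. Most vertebrate ribosomal protein mRNAs begin with a terminal oligopyrimidine (TOP) tract, a run of C and T bases at the transcription start through which mTOR signalling regulates their translation. These genes have very many processed pseudogenes, near-identical copies elsewhere in the genome, which makes short reads from them hard to place.

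Sequencing depth, as counts on genes, was 19.7 M to 41.3 M per library, and the members together took between 0.242% and 0.438% of it. Neither the treatment nor the genotype alone sorted the libraries by nuclear-retained RNA. The mean log2 CPM of Malat1, Neat1 and Xist, called the nuclear RNA level here, was 9.15 to 9.62 in the 12 untreated libraries and 5.14 to 5.44 in 10 of the R837 libraries, but 8.92 in R837 replicate 1 of TBK1-WT ∆control and 8.93 in R837 replicate 3 of TBK1-cKD ∆IKKe. The same 14 high-level libraries had 10.8% to 12.0% of reads outside the gene counts, against 8.41% to 8.93% in the 10 low-level libraries. R837 replicate 2 of TBK1-cKD ∆control was the shallowest, with 19.7 M counts and 14226 genes with a count.

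Counts of the targeted genes did not all follow the labels. Ikbke stood at 59.0, 59.9 and 59.6 CPM in untreated TBK1-WT ∆control and at 35.9, 34.5 and 35.0 CPM in untreated TBK1-WT ∆IKKe, but at 80.6, 76.9 and 81.3 CPM in the untreated libraries labelled TBK1-cKD ∆IKKe. After R837 the latter held 77.7, 82.7 and 259 CPM, so replicate 3 stood apart and was close to the 239 to 248 CPM of TBK1-cKD ∆control. R837-treated TBK1-WT ∆control held 406, 220 and 233 CPM, with replicate 1 the highest of all. Tbk1 was at 100 to 104 CPM in untreated TBK1-WT ∆control, 73.4 to 76.3 CPM in TBK1-cKD ∆control and 87.9 to 90.7 CPM in the untreated libraries labelled TBK1-cKD ∆IKKe. After R837 it was at 115, 117 and 136 CPM in the latter against 148, 118 and 123 CPM in TBK1-WT ∆control, so these groups overlapped (log2 difference -0.08, edgeR adjusted p = 0.445), while TBK1-cKD ∆control lay below at 93.4 to 107 CPM. Which exons were deleted is not given, so reads from the remaining exons may be counted. Every direction below that involves the libraries labelled TBK1-cKD ∆IKKe rests on those labels.

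The macrophage markers Adgre1, Csf1r, Cd68, Itgam, Mertk, Fcgr1, Lyz2 and Cd14 were all above 1 CPM, with sums of 15970 to 24110 CPM untreated and 27200 to 32880 CPM after R837. Summed neutrophil markers were at 1.26 to 8.75 CPM untreated and 21.4 to 215.6 CPM after R837, with 6 and 5 of 8 genes under 1 CPM. Summed lymphocyte markers were at 26.0 to 61.4 CPM and then 6.86 to 9.45 CPM, with 6 of 8 under 1 CPM in both. Summed stromal markers were at 18.8 to 59.0 CPM and 16.1 to 49.5 CPM, with 2 of 6 under 1 CPM. All 6 dendritic cell markers were under 1 CPM, and 4 untreated and 2 R837 erythroid and mast cell markers of 8 were at 0. The part of these markers in the results below was not tested. In such bulk samples fewer cells of a type and less RNA per cell cannot be told apart.

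The 5 most counted members held 59.7% of all member counts, while 27 members had a mean under 10 CPM. Per kilobase of gene width (RPKM), the highest means included those of Rpl8 at 641, a core protein of the large subunit beside the peptidyl transferase centre, and Rplp1 at 250, a protein of the P stalk. The lowest among the members were Rpl21 at 0.879, Rpl9 at 1.09 and Rpsa at 1.11 RPKM. Rps6, the small subunit protein that S6 kinases phosphorylate, stood at 0.057 RPKM and was not a member, nor was Rpl11 at 0.732 RPKM, the partner of Rpl5 in the complex with 5S ribosomal RNA. The subunits of a ribosome are present once each, apart from the stalk proteins, yet the counted levels of their genes differed by a wide range.

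That range went along with how much of a gene's coding sequence is repeated elsewhere. Each coding sequence was divided into 50-base windows, the read length, and a window was called shared when it matched the transcript of another gene or pseudogene with at most 2 mismatches. In 57 of the 86 genes every coding window was shared, and their median level was 1.64 RPKM with a maximum of 81.1. In the other 29 genes the median was 37.5 RPKM. All windows were shared in 35 of the 59 members and in 22 of the 27 genes under the minimum. Rpl8 shared 9.66% of its windows, and Rps3, a small subunit protein at the mRNA entry site, chosen here after its values were seen, shared 43.3% and stood at 244 RPKM. Rps6 shared 100% with 25 pseudogenes hit, and Rpl21 shared 100% with 115. For the 78 mitochondrial ribosomal protein genes, which make a separate ribosome, the median share was 5.90% and the median level 13 RPKM, against 8.17 RPKM for the members.

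**Figure D1:**
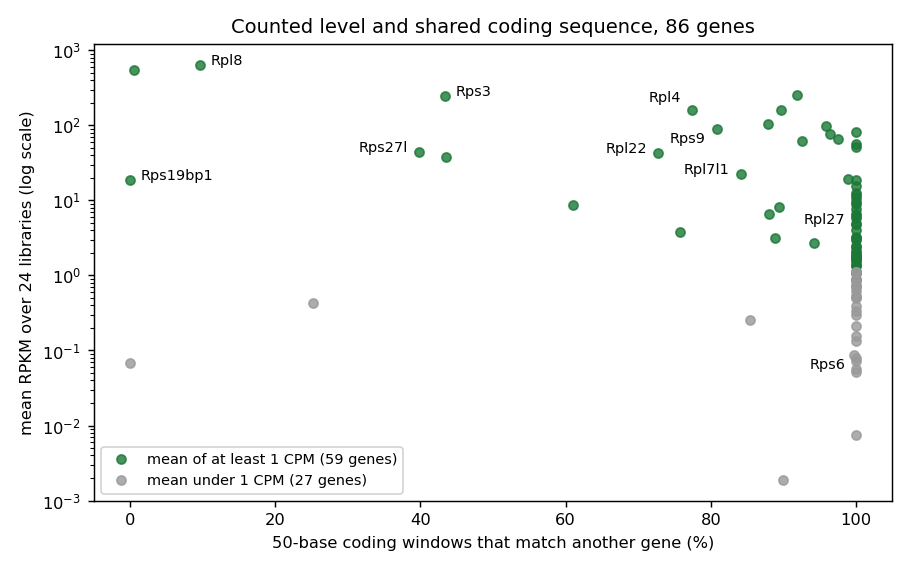
Mean RPKM over 24 libraries (log scale) against the percentage of 50-base coding windows that match another gene, for the 86 genes; green points are the 59 members and grey points the 27 genes under 1 CPM. The column of points at 100% holds 22 of the 27 grey points, while Rpl8, with few shared windows, is at the top left.

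The same held for related genes outside the rule. Rack1, a scaffold protein of the small subunit, stood at 843 CPM and shared 6.52% of its windows, whereas Fau, which codes for a ribosomal protein fused to a ubiquitin-like protein, stood at 1.70 CPM with all windows shared. Gapdh, a glycolytic enzyme gene chosen here after its values were seen, stood at 0.141 CPM with 94.4% of its windows shared and 328 pseudogenes hit. Which reads the counting kept is not given in the sources used here, so levels of different members are not comparable as RNA amounts, and the changes of a member are changes of its counted reads.

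Sequence around the annotated start was read for the members from RefSeq (GRCm38.p6), 15 bases before and 15 bases from the start on, on the gene's strand. The table held 47 of the 59 members. The first windows shown are of members with long runs, and the longest run of C and T is in capitals. They do not stand for all members named below. Runs were short in Rps3 (3 bases), Rplp0 (5) and Rpl5 (4), and long in Rpl34 (18) and Rpl27a (19). Rpl13a is on chr7:45128731-45128760, Rps9 on chr7:3704026-3704055, Rps10 on chr17:27635230-27635259 and Rplp2 on chr7:141447636-141447665.
Rpl13a: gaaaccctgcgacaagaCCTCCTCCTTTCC
Rps9: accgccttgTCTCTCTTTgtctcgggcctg
Rps10: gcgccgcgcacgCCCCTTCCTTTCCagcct
Rplp2: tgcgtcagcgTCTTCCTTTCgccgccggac

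For contrast, the following windows held no long run. Rpl27 is on chr11:101442230-101442259, Rpl7l1 on chr17:46782642-46782671 and Rps19bp1 on chr15:80264292-80264321. In GENCODE M21 Rpl27 begins at 101442298, outside its window.
Rpl27: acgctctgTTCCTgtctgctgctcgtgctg
Rpl7l1: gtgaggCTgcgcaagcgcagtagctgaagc
Rps19bp1: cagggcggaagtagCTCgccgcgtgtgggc

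A run of at least 8 pyrimidines was present in 20 of the 47 members with a window, or 42.55%, with a median longest run of 7. It was present in 36.84% of the genes under the minimum that had a window. The share was 13.04% of 69 mitochondrial ribosomal protein genes and 14.12% of 16478 protein-coding genes, and in both of these sets the median longest run was 5. A gene with several annotated starts was counted by its longest run, so it had more chances. The runs were 13 bases in Rpl13a and Rps10, 10 in Rplp2 and 9 in Rps9, against 5 in Rpl27, 3 in Rps19bp1 and 2 in Rpl7l1. A match describes the letters of the window and not a site in use.

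After R837 more than 30 of the 59 members rose in 3 of the 4 genotypes, and 19 in the fourth, the libraries labelled TBK1-cKD ∆IKKe. In TBK1-WT ∆control 32 members rose and none fell, at an adjusted p under 0.05 (edgeR quasi-likelihood test with Benjamini-Hochberg adjustment over 14681 genes), where 30.6% of all genes tested rose and 32.0% fell. The median log2 change of the members was 0.55, against -0.04 for all genes tested. In TBK1-WT ∆IKKe 43 members rose and 1 fell (32.4% and 37.8% of all genes) with a median of 0.59, and in TBK1-cKD ∆control 42 rose and 1 fell (31.6% and 37.5%) with a median of 0.69. The libraries labelled TBK1-cKD ∆IKKe had 19 members that rose and none that fell (31.6% and 34.8%), so the share of members that rose was near that of all genes, and the median was 0.28. All 59 members were among the genes tested, and 57, 58, 58 and 48 of them had a log2 change above 0 in these 4 responses.

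The 16 members that rose in all 4 responses, which share no libraries, included Rps3, Rps9, Rps20, Rps24, Rpl8, Rpl13a, Rpl26, Rpl27, Rpl41, Rplp0, Rplp1, Rpl7l1 and Rps19bp1. Of the 20 small subunit proteins 14, 16, 17 and 8 rose in the 4 responses in the order above, with medians of 0.56, 0.67, 0.77 and 0.42. Of the 32 large subunit proteins 14, 22, 19 and 6 rose, with medians of 0.49, 0.56, 0.50 and 0.15, and 1 of them, Rpl9, fell in TBK1-WT ∆IKKe and in TBK1-cKD ∆control. Of the 17 tested genes that matched the rule but lay under the minimum, 1, 2, 6 and 2 rose and 1 fell in each response.

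The counts depended on single libraries. In TBK1-WT ∆control 47 members rose without R837 replicate 1, 17 without R837 replicate 2 and 19 without R837 replicate 3, where 33.9%, 27.4% and 27.3% of all genes rose. In the libraries labelled TBK1-cKD ∆IKKe the count was 8, 10 and 30 without R837 replicates 1, 2 and 3, and 12 without untreated replicate 1, where 29.5%, 29.2%, 32.1% and 29.3% of all genes rose. When the libraries were scaled by their summed counts and not by TMM (a trimmed mean of log ratios), the median of all genes moved to -0.31, -0.38, -0.37 and -0.45, and 14, 16, 28 and 4 members rose in the 4 responses (18.9%, 19.9%, 20.0% and 18.0% of all genes). In the libraries labelled TBK1-cKD ∆IKKe 12 members then fell (53.7% of all genes), and the median of the members was -0.11.

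**Figure D2:**
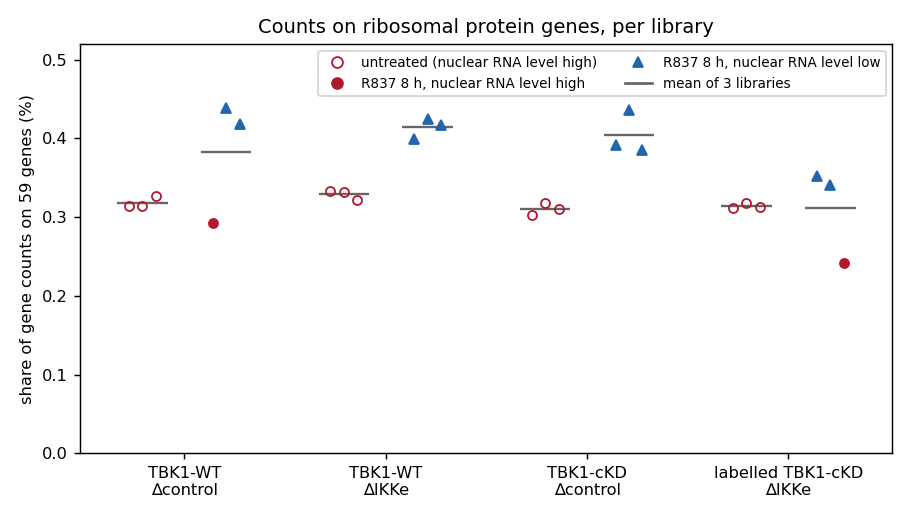
Share of all gene counts on the 59 members in each library, by genotype. Open circles are untreated libraries, filled circles the 2 R837 libraries of high nuclear RNA level, triangles the R837 libraries of low level, and lines the mean of 3; all triangles lie above all circles.

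The member share of gene counts followed the nuclear RNA level as well as the treatment. It was 0.302% to 0.333% in the 12 untreated libraries and 0.341% to 0.438% in the 10 R837 libraries of low nuclear RNA level. It was 0.293% and 0.242% in the 2 R837 libraries of high level, below every untreated library. Within R837-treated TBK1-WT ∆control both low-level libraries exceeded the high-level one in 57 of 59 members, or 96.61%, where this held for 43.55% of all genes tested, and the median log2 difference was 0.61 for members and -0.003 for all genes. Within the R837 libraries labelled TBK1-cKD ∆IKKe it held for 55 members, or 93.22%, against 44.15% of all genes, with medians of 0.64 and 0.008.

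With the low-level R837 libraries alone, an alternative chosen after seeing the data, 53, 48, 49 and 41 members rose in the 4 responses and 1 fell in each. Of all genes tested 35.7%, 36.7%, 35.9% and 36.3% rose and 36.9%, 38.8%, 38.4% and 38.0% fell. The medians were then 0.77, 0.65, 0.73 and 0.52, and 37 members rose in all 4. With the high-level libraries alone, 10 members rose and 4 fell in TBK1-WT ∆control (30.6% and 30.6% of all genes) with a median of 0.06. Those labelled TBK1-cKD ∆IKKe had 6 that rose and 23 that fell (33.3% and 33.5%), with a median of -0.16. Each of these contrasts has 1 R837 library against 3 untreated ones, and its spread was assumed to be that of the other groups. In the other 2 genotypes all R837 libraries were of low level and all untreated ones of high level, so the treatment and the nuclear RNA level cannot be told apart there. When the nuclear RNA level entered as a covariate in the fit of all 24 libraries, 9, 5, 5 and 5 members rose in the 4 responses (29.8%, 27.7%, 26.3% and 32.1% of all genes) and 2, 2, 3 and 18 fell (30.1%, 26.5%, 26.3% and 33.6%), with medians of 0.04, -0.03, 0.01 and -0.20. Beside the members, the medians of all genes under that covariate were between -0.03 and -0.004. The covariate was high or low, and it varied only within the R837 groups of TBK1-WT ∆control and TBK1-cKD ∆IKKe. The 1 high-level library in each of these groups therefore set its size. For TBK1-WT ∆IKKe and TBK1-cKD ∆control the adjusted values are carried over from those groups and cannot be checked within the genotype.

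**Figure D3:**
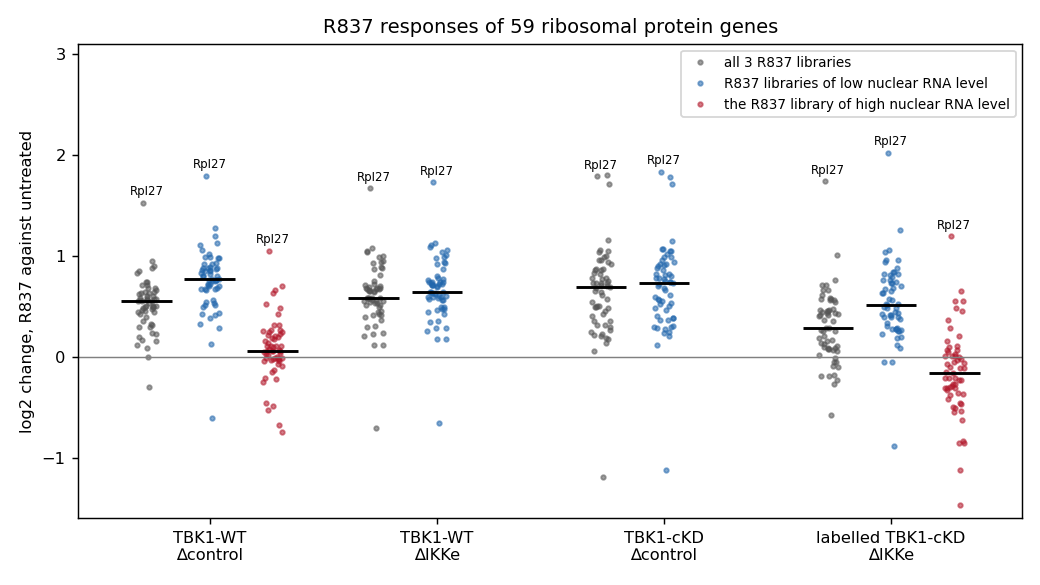
Log2 change after R837 of each of the 59 members, in the 4 genotypes, with all 3 R837 libraries (grey), with those of low nuclear RNA level (blue) and with the 1 library of high level (red, present in 2 genotypes); black bars are medians. The red medians, 0.06 and -0.16, lie below the blue ones, 0.77 and 0.52, and Rpl27 is labelled.

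The most counted members named here showed this split plainly. Rpl8 was at 465, 466 and 507 CPM in untreated TBK1-WT ∆control and at 532, 860 and 817 CPM after R837, where replicate 1 is the library of high nuclear RNA level. All 3 treated libraries lay above the untreated ones, and the log2 change was 0.62 ± 0.13 (SE, edgeR adjusted p = 0.000408), or 0.16 with the high-level libraries alone. In the libraries labelled TBK1-cKD ∆IKKe its call was lost without R837 replicate 1 (adjusted p = 0.0585).

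Rps3 was at 400, 404 and 423 CPM in untreated TBK1-WT ∆control and at 439, 702 and 676 CPM after R837, and replicate 1 lay just above the untreated range. The log2 change was 0.57 ± 0.13 (edgeR adjusted p = 0.00103), against 0.11 with the high-level libraries alone and 0.81 with the low-level R837 libraries. Under the label TBK1-cKD ∆IKKe it was at 431, 424 and 434 CPM untreated and at 660, 652 and 438 CPM after R837, and replicate 3, of high nuclear RNA level, was the low one. The log2 change there was 0.44 ± 0.13 (adjusted p = 0.00676), but 0.04 with the high-level libraries alone. In TBK1-cKD ∆control Rps3 went from 404, 438 and 429 CPM to 667, 677 and 660 CPM, with no overlap.

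**Figure D4:**
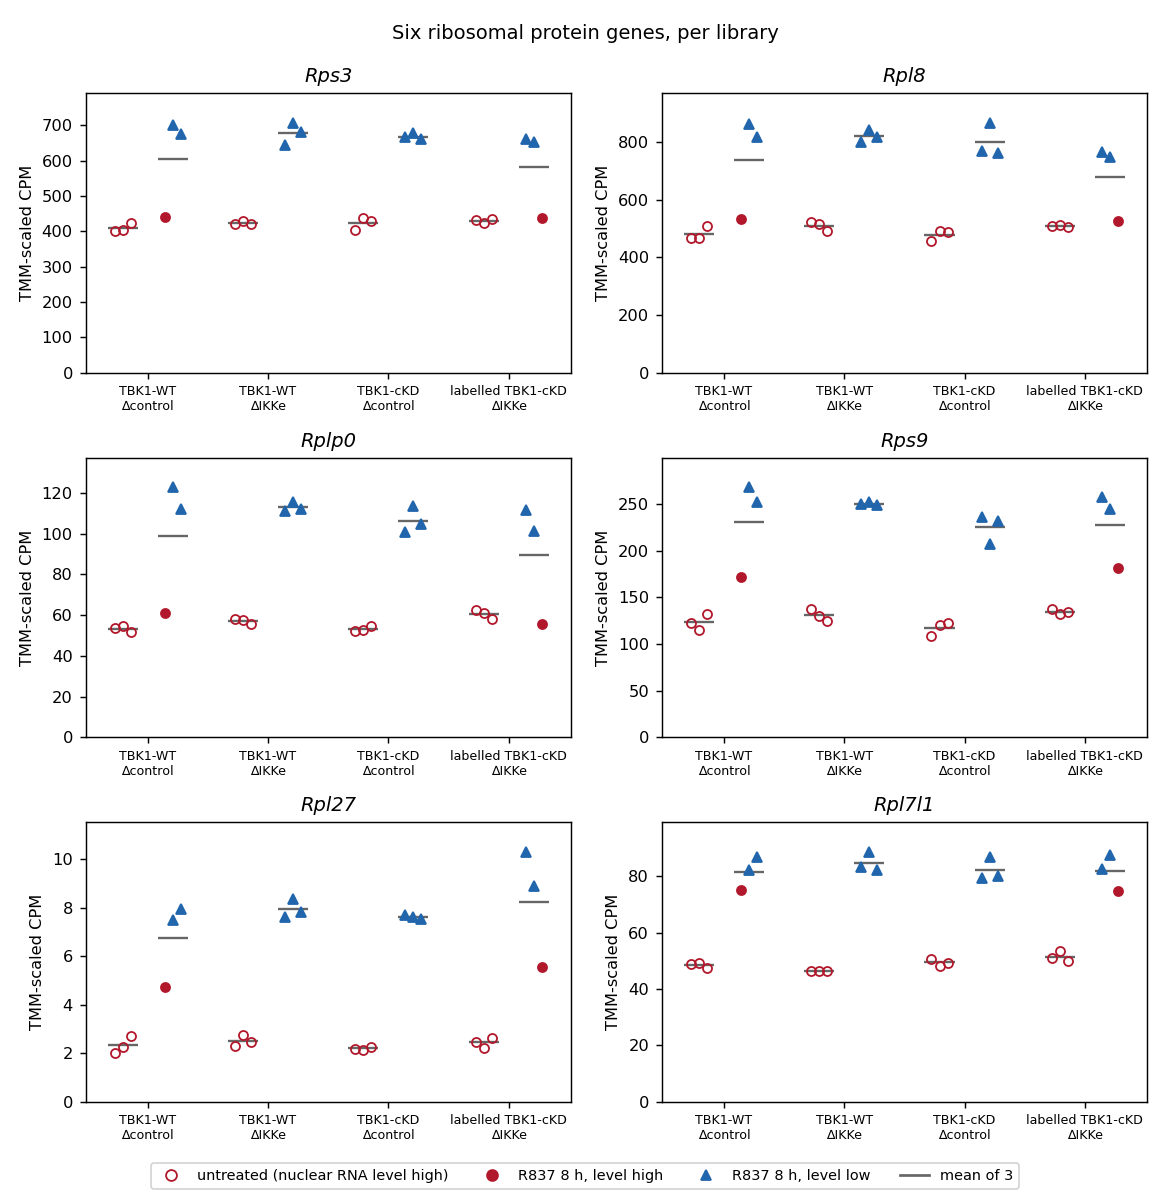
TMM-scaled CPM of Rps3, Rpl8, Rplp0, Rps9, Rpl27 and Rpl7l1 in each of the 24 libraries, by genotype; symbols as in the plot of member shares, lines are means of 3. For Rps3 the filled circles lie close to the open ones of their genotype, while for Rps9, Rpl27 and Rpl7l1 they lie clearly above them.

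The P stalk genes rose in most responses. Rplp0 was at 53.8, 54.6 and 51.6 CPM in untreated TBK1-WT ∆control and at 61.1, 123 and 112 CPM after R837, and all treated libraries were higher. Its log2 changes in the 4 responses were 0.89, 0.99, 1.004 and 0.56, all past the threshold, but -0.10 with the high-level libraries labelled TBK1-cKD ∆IKKe alone. The call in the libraries labelled TBK1-cKD ∆IKKe was lost without R837 replicate 1 or 2 or untreated replicate 3 (edgeR adjusted p = 0.127, 0.0768 and 0.0522). Rplp1 was at 102, 106 and 108 CPM and then 104, 200 and 186 CPM in TBK1-WT ∆control, so its replicate 1 did not leave the untreated range. Rplp2 was at 2.85, 3.97 and 3.99 CPM and then 3.82, 6.93 and 6.69 CPM there, with overlap and a log2 change of 0.68 ± 0.41 (edgeR adjusted p = 0.157). It rose by 1.71 ± 0.41 in TBK1-cKD ∆control and by 1.01 ± 0.42 where the label was TBK1-cKD ∆IKKe (edgeR adjusted p = 0.00112 and 0.0408). The latter call was lost without any 1 of those 6 libraries except R837 replicate 3 (adjusted p from 0.0548 to 0.194).

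Rpl27, a large subunit protein, had the largest rise of any member in TBK1-WT ∆control. Its counts were low, at 2.02, 2.27 and 2.70 CPM untreated and 4.75, 7.49 and 7.96 CPM after R837, and the groups did not overlap. Log2 changes were 1.53 ± 0.20, 1.67 ± 0.20, 1.79 ± 0.20 and 1.74 ± 0.20 in the 4 responses (edgeR adjusted p from 1.07e-07 to 8.14e-07). With the high-level libraries alone it still rose, by 1.05 in TBK1-WT ∆control and 1.20 in those labelled TBK1-cKD ∆IKKe. All coding windows of Rpl27 are shared, with 18 pseudogenes hit.

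The gene next to Rpl27 also moved. Rpl27 lies on the plus strand of chromosome 11 (GRCm38, 101442298 to 101445529), and Ifi35, an interferon-induced gene chosen here after its values were seen, begins 2877 bases beyond its end on the same strand (101448407 to 101458698). In TBK1-WT ∆control Ifi35 was at 29.1, 31.3 and 35.6 CPM untreated and at 85.2, 106 and 105 CPM after R837, and its log2 changes in the 4 responses were 1.63, 1.25, 1.93 and 1.99. Their exons do not overlap in GENCODE M21, and whether reads running past the end of one gene reach the other was not tested.

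Rps9, Rpl7l1 and Rps19bp1 rose in both contrasts of high-level libraries too, the only members besides Rpl27 to do so. Rps9, a small subunit protein at the mRNA entry site, was at 123, 115 and 132 CPM in untreated TBK1-WT ∆control and at 171, 268 and 253 CPM after R837. Its log2 change was 0.90 ± 0.13, and 0.48 and 0.45 in the 2 high-level contrasts. Rpl7l1, a paralog of Rpl7, went from 48.9, 49.3 and 47.5 CPM to 75.0, 82.3 and 86.9 CPM, with a small gap between replicates, and its log2 changes of 0.74, 0.87, 0.73 and 0.67 each had an SE of 0.06. Rps19bp1 went from 13.3, 12.4 and 12.7 CPM to 20.1, 20.9 and 20.5 CPM, and its high-level replicate was not set apart. Of these genes Rps19bp1 shares no coding window with another gene.

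Rpl13a, a large subunit protein that also takes part in a complex silencing inflammatory mRNAs, was at 17.6, 17.9 and 17.7 CPM in untreated TBK1-WT ∆control and at 25.4, 35.1 and 35.8 CPM after R837. Its log2 changes were 0.86, 1.03, 0.83 and 0.58 in the 4 responses, with an SE of 0.13 in each, and 0.53 in TBK1-WT ∆control with the high-level libraries alone. Other large rises in TBK1-WT ∆control were those of Rps14, from 70.2, 66.9 and 72.3 CPM to 79.1, 128 and 144 CPM, Rpl6, by 0.72 ± 0.17, and Rps10, by 0.83 ± 0.28, a call lost without R837 replicate 2 (edgeR adjusted p = 0.074). Rps14 is a small subunit protein of the platform, and its rise in the libraries labelled TBK1-cKD ∆IKKe missed the threshold (0.44 ± 0.22, edgeR adjusted p = 0.083), with R837 values of 159, 147 and 63.9 CPM. In TBK1-WT ∆IKKe the largest rises after Rpl27 were those of Rpl19, by 1.07 ± 0.35, Rps4x, by 1.05 ± 0.32, and Rpl13a. Both were weakly counted there, Rpl19 at 0.896, 0.872 and 0.999 CPM untreated and 2.05, 2.32 and 1.49 CPM after R837, and Rps4x at 1.05, 1.39 and 1.51 CPM and then 2.27, 2.79 and 3.09 CPM. In neither gene did the groups overlap. In the libraries labelled TBK1-cKD ∆IKKe Rpl34 rose by 0.72 ± 0.22.

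Rpl9, a large subunit protein near the factor binding site, was the single member that fell in any of the 4 responses. In TBK1-cKD ∆control it was at 4.21, 4.18 and 3.75 CPM untreated and at 1.73, 0.888 and 2.57 CPM after R837, without overlap. The log2 change was -1.19 ± 0.29 there and -0.71 ± 0.28 in TBK1-WT ∆IKKe (edgeR adjusted p = 0.00135 and 0.0312). The call in TBK1-WT ∆IKKe was lost without any 1 of its 6 libraries except R837 replicate 2 (adjusted p from 0.0515 to 0.0923). In TBK1-WT ∆control its R837 values were 4.60, 2.89 and 2.15 CPM against 4.05, 3.71 and 4.32 CPM untreated, so the high-level replicate 1 was the highest of the 6. The sign of its change there turned with the libraries used, from -0.60 with the low-level R837 libraries to 0.21 with the high-level libraries alone. All coding windows of Rpl9 are shared, with 33 pseudogenes hit.

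Rpl22 and Rps27l fell in both high-level contrasts, and in neither response with all libraries. Rpl22, a large subunit protein that is not essential for translation, was at 91.4, 92.2 and 92.4 CPM in untreated TBK1-WT ∆control and at 76.9, 114 and 108 CPM after R837. Rps27l, a paralog of Rps27 known as a target of p53, was at 24.1, 25.6 and 25.5 CPM and then 21.3, 35.5 and 35.9 CPM. In both genes the high-level replicate lay below the untreated libraries and the low-level replicates above them. Both genes behaved alike in the libraries labelled TBK1-cKD ∆IKKe, where Rpl22 had R837 values of 101, 99.2 and 71.2 CPM and Rps27l 33.1, 31.5 and 19.1 CPM.

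For Rps27 and Rpl7 the paralog was counted more than its partner. Rps27l stood at 43.9 RPKM and Rps27rt at 6.19, against 0.860 RPKM for Rps27. Rpl7l1 stood at 22.2 RPKM against 3.15 for Rpl7. The reverse held for Rpl22, at 42.1 RPKM against 0.301 for its paralog Rpl22l1. The pairs Rpl39 and Rpl39l (1.52 and 0.433 RPKM), Rpl3 and Rpl3l (0.502 and 0.0679), Rpl10 and Rpl10l (3.19 and 0.00188) and Rpl36a and Rpl36al (1.86 and 0.335) were low throughout. All coding windows were shared in Rps27, Rpl22l1, Rpl39, Rpl3, Rpl10, Rpl36a and Rpl36al, so their reads could also match other genes or pseudogenes. Rpl3l shared 0%, Rpl39l 25.2% and Rpl10l 89.9% of coding windows.

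A single library, R837 replicate 2, raised the changes of Rplp2, Rpsa and Rps27rt in TBK1-cKD ∆control. It was the shallowest, with 19.7 M counts and 14226 genes with a count. Untreated replicate 2 of TBK1-WT ∆IKKe was nearly as shallow, at 20.3 M, but had 18427 genes with a count. The part of depth was not tested. In R837 replicates 1, 2 and 3 of that group Rplp2 was at 6.10, 26.5 and 5.68 CPM, Rpsa, which also codes for the laminin receptor, at 3.02, 11.6 and 3.03 CPM, and Rps27rt at 1.88, 11.4 and 2.76 CPM. In each case R837 replicate 2 stood far above the others of its group. Without that library 36 members rose and 1 fell in that response, with a median of 0.60. Of the 14885 genes tested in that fit 4642 rose and 5374 fell, with a median of -0.075. The log2 change of Rplp2 went from 1.71 to 0.64, that of Rpsa from 1.16 to 0.25 and that of Rps27rt from 1.81 to 0.65, and of these only Rplp2 remained past the threshold (edgeR adjusted p = 0.0259, 0.414 and 0.153).

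Without treatment almost no member was called between genotypes. These tests draw on a spread shared by all 24 libraries, including the 2 R837 libraries of high nuclear RNA level. With it Ikbke was not called between untreated TBK1-WT ∆IKKe and TBK1-WT ∆control (log2 difference -0.76, no overlap). Without those 2 libraries Ikbke was called (edgeR adjusted p = 1.98e-09). Few calls therefore do not show that the members were alike. Against TBK1-WT ∆control, no member was called in TBK1-WT ∆IKKe by edgeR, where 0% of all genes were called, with 1 member at an unadjusted p under 0.05 and none called by DESeq2. Rps19bp1 alone was higher in TBK1-cKD ∆control (5.05% of all genes were called), at 16.1, 15.7 and 14.9 CPM against 13.3, 12.4 and 12.7 CPM, a log2 difference of 0.28 ± 0.06 (edgeR adjusted p = 0.0086). The groups did not overlap, but the call was lost (adjusted p = 0.0559) when untreated replicate 2 of TBK1-WT ∆control was left out, and also without the filter on low counts (adjusted p = 0.161). In the untreated libraries labelled TBK1-cKD ∆IKKe no member was called, where 13.6% of all genes were, with 2 members at an unadjusted p under 0.05 and none called by DESeq2. In that comparison 10 members were called with the high-level libraries alone (32.3% of all genes) and 4 without the 2 R837 libraries of high level (24.3% of all genes). The medians of the member differences were 0.08, -0.004 and 0.04 in these 3 comparisons.

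After R837 no member was called in TBK1-WT ∆IKKe against TBK1-WT ∆control (1.85% of all genes, and 0 members at an unadjusted p under 0.05) or in TBK1-cKD ∆control (8.89% of all genes, and 4 members at an unadjusted p under 0.05). DESeq2 called 0 and 2 members in these comparisons. The libraries labelled TBK1-cKD ∆IKKe had 5 members lower and none higher, where 15.5% of all genes were lower, and the median difference of the members was -0.15. The 5 are all large subunit proteins: Rpl12, which binds at the stalk base, Rpl5, which carries 5S ribosomal RNA, Rpl15, Rpl31, which lies at the exit of the peptide tunnel, and Rpl27a, which had the smallest difference of the 5 and is named here after its values were seen. All these genotype comparisons share the TBK1-WT ∆control libraries.

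Rpl5 was at 16.2, 20.2 and 21.5 CPM in R837-treated TBK1-WT ∆control and at 13.2, 13.5 and 9.88 CPM in the R837 libraries labelled TBK1-cKD ∆IKKe, without overlap. The log2 difference was -0.66 ± 0.12 (edgeR adjusted p = 0.000191), and its untreated values were 13.2, 13.7 and 12.2 CPM against 10.7, 12.8 and 11.3 CPM. Rpl12 was at 2.25, 3.22 and 3.06 CPM against 2.01, 1.93 and 1.07 CPM, a difference of -0.77 ± 0.20 (adjusted p = 0.00526). In both genes the lowest R837 library of each genotype was the one of high nuclear RNA level. With the low-level R837 libraries the differences were -0.63 for Rpl5 and -0.67 for Rpl12. Between the high-level R837 libraries, 1 of each genotype and so with no replicate check, they were -0.70 and -1.06.

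Rpl15 was at 18.7, 24.7 and 25.3 CPM against 19.3, 18.3 and 12.5 CPM, Rpl31 at 9.25, 14.3 and 13.5 CPM against 10.4, 8.74 and 8.08 CPM, and Rpl27a at 20.5, 28.7 and 29.1 CPM against 23.7, 21.8 and 15.1 CPM. In these 3 genes the groups overlapped, and the high-level replicate of TBK1-WT ∆control lay within the range of the other genotype. Their log2 differences were -0.46 ± 0.14, -0.44 ± 0.14 and -0.37 ± 0.13 (edgeR adjusted p = 0.0132, 0.0215 and 0.0375). All 3 calls were lost without R837 replicate 2 or 3 of TBK1-WT ∆control or R837 replicate 3 of the libraries labelled TBK1-cKD ∆IKKe, that of Rpl31 also without replicate 2 of the latter (adjusted p from 0.0579 to 0.203). Between the high-level R837 libraries, 1 of each genotype, the difference of Rpl31 was -0.18. The kit does not mark strand, and exons of Rpl5 overlap those of Fam69a on the opposite strand over 953 bases, or 24.31% of its exon bases, while those of Rpl31 overlap Tbc1d8 over 25.27%. Reads of such partners cannot be told apart.

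**Figure D5:**
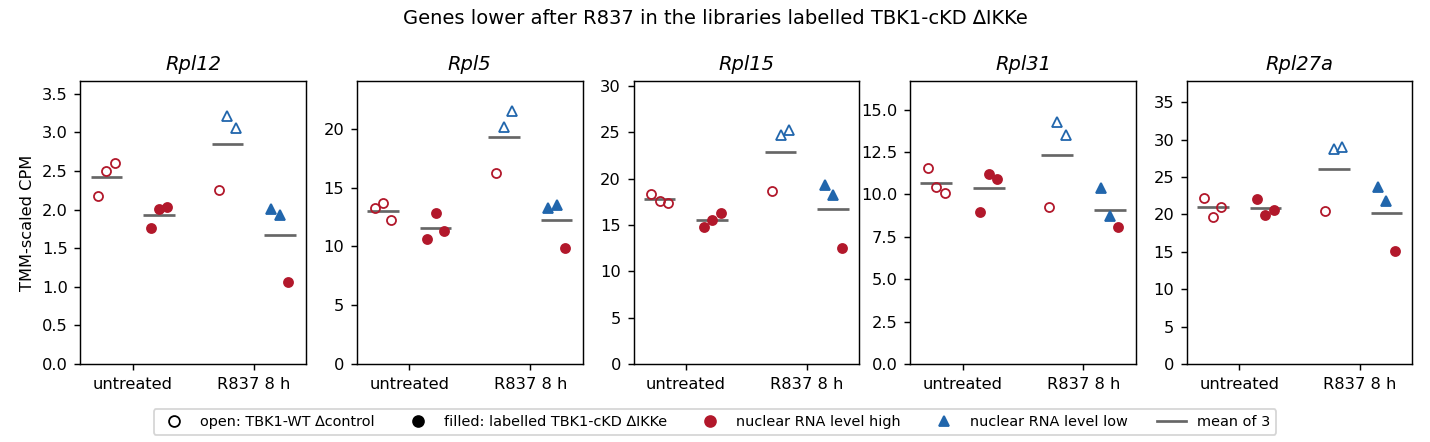
TMM-scaled CPM of Rpl12, Rpl5, Rpl15, Rpl31 and Rpl27a in TBK1-WT ∆control (open) and the libraries labelled TBK1-cKD ∆IKKe (filled), untreated and after R837. Circles are libraries of high and triangles of low nuclear RNA level, lines are means of 3; for Rpl5 the R837 groups do not overlap.

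The count of 5 moved with single libraries. It was 14 without R837 replicate 1 of TBK1-WT ∆control, 2 without its replicate 2 and 2 without its replicate 3, and 8 and 2 without R837 replicates 1 and 3 of those labelled TBK1-cKD ∆IKKe. Of all genes 16.7%, 14.0%, 13.7%, 13.6% and 17.5% were lower in these fits. With the low-level R837 libraries alone 10 members were lower (15.8% of all genes) and 2 higher (20.0% of all genes), and with the high-level libraries alone 13 were lower (15.4% of all genes). The last count compares 1 R837 library with 1, with the spread assumed to be that of the untreated groups, and so describes those 2 libraries and not the genotypes. As a change of the R837 response relative to that of TBK1-WT ∆control, no member was called for TBK1-WT ∆IKKe (0.245% of all genes, 0 members at an unadjusted p under 0.05) or for TBK1-cKD ∆control (0.879%, 2 members at an unadjusted p under 0.05). For the libraries labelled TBK1-cKD ∆IKKe 1 member, Rps19, was called (17.3% of all genes), with a smaller response by 0.65 ± 0.22 on the log2 scale (edgeR adjusted p = 0.0487).

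Other genes of protein synthesis were followed in lists, to be read against the 30.6% of all genes that rose and the 32.0% that fell in TBK1-WT ∆control. There 10 of 12 elongation and termination factors rose and 1 fell, and the list's median was 0.49 on the log2 scale, against -0.04 for all genes tested. The high-level libraries alone gave 6 that rose and 1 that fell, with a median of 0.15. The risers included Eif5a, which helps ribosomes past stalling sequences, by 0.86 ± 0.16, and Eef1g, a subunit of the elongation factor 1 complex, by 0.74 ± 0.18, and the gene that fell was Eef2k, the kinase that inhibits elongation factor 2, by 2.38 on the log2 scale. The changes of Eif5a and Eef1g were 0.32 and 0.30 with the high-level libraries alone. Of 40 initiation factors 26 rose and 4 fell, with a median of 0.40. Among them Eif4g2 rose by 1.52 ± 0.08 and Eif6, which keeps the subunits apart, by 1.41 ± 0.12, while Eif4b, a helper of the initiation helicase, changed by -0.61 ± 0.07.

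Of 74 tested genes of ribosome assembly and rRNA processing 32 rose and 7 fell, with a median of 0.18. Bop1 and Bysl, needed for large and small subunit maturation, both rose by 1.10, and Ncl, the nucleolar protein nucleolin, changed by -0.85 ± 0.21, or -0.30 with the high-level libraries alone. Of 19 RNA polymerase I genes 7 rose and 2 fell (median 0.14), a rising share near that of all genes and a smaller falling share. Of 22 regulators of ribosomal protein mRNAs 8 rose and 8 fell (median 0.04), shares near those of all genes. Among the regulators Eif4ebp1, the mTOR-controlled repressor of the cap-binding factor eIF4E, rose by 1.93 ± 0.17. Larp1, which binds TOP tracts, rose by 0.61 ± 0.16 (1.06 with the high-level libraries alone). Rptor, a subunit of mTOR complex 1, changed by -0.98 ± 0.07.

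The mitochondrial ribosomal proteins also tended upward, with 44 of 75 tested genes rising and 4 falling and a median of 0.30 in TBK1-WT ∆control. With the high-level libraries alone their median was 0.09 and with the low-level R837 libraries 0.44, where the members had 0.06 and 0.77. The largest rises were those of Mrpl52, by 2.35 ± 0.10, and Mrpl45, by 1.51 ± 0.06. Of the ribosomal proteins named otherwise, Rack1 rose by 0.60 ± 0.14 and Fau by 0.95 ± 0.23 in TBK1-WT ∆control, and both rose in all 4 responses. The change of Rack1 with the high-level libraries alone was 0.13 there and -0.01 in those labelled TBK1-cKD ∆IKKe, and that of Fau 0.64 and 1.27. In the fit with nuclear RNA level as covariate the changes of Rack1 in the 4 responses were 0.12, 0.06, 0.007 and -0.02, of which only the first passed the threshold (edgeR adjusted p = 0.00899).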

How the data were processed

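Libraries were made with the TruSeq RNA v2 kit and sequenced on a HiSeq4000 as single-end 50-base reads, per the labels' protocols. The authors deposited whole-number read counts per Ensembl gene and RPKM values per gene. Per the submitters' processing notes, reads were aligned with GSNAP to GRCm38. How reads were counted, and what was done with those of several matches, is not given in the sources used here. Symbols and gene types came from GENCODE M21, which holds 52403 of the 52636 identifiers; the other 233 held 0.0187% of counts. The deposited columns of sample values left aside numbered 0.

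Deposited counts were fitted in edgeR 4.0.16 (R 4.3.3) with TMM scaling and filterByExpr (minimum count 10, minimum total 15), with 1 mean per group over all 24 libraries and the quasi-likelihood F test. Benjamini-Hochberg adjustment ran over the 14681 genes tested, with a threshold of 0.05. There were 16 residual degrees of freedom and a common biological coefficient of variation of 0.116. An SE is the log2 change over the square root of F. CPM in the text is TMM-scaled, except where it selected members and for Rack1, Fau and Gapdh beside their shared windows. In those places it is the count over the library's summed counts. Other levels of different genes are compared in the deposited RPKM. The 13 comparisons were the 4 responses, 6 genotype contrasts against TBK1-WT ∆control and 3 differences of responses. Alternatives were DESeq2 1.42.0 size factors, its Wald test, no TMM, no filter, the nuclear RNA level as a covariate, the high-level libraries alone (level over 7), and each replicate left out. The same fit without the 2 R837 libraries of high nuclear RNA level was added after the data were seen. Coding windows were matched to GENCODE transcripts with BWA 0.7.19. The fit was tested on simulated data. Pairs of replicates differed by more than sampling noise. Where mice of different groups are shared is not given, and the replicate numbers follow the order of the records.

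Named members are the 3 highest and 3 lowest by RPKM, the 4 called members of largest rise and fall in each comparison (8 in TBK1-WT ∆control after R837), Rps6, Rpl5, Rpl11, Rpl13a, Rpsa, the stalk genes and the paralog pairs; other lists give up to 3 genes each way. Some genes that this rule names are not reported here. The members and lists were chosen with earlier results of these data known.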

Additional observations from a re-analysis of the deposited data

Results flagged for a closer look

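Rps19, a small subunit protein, had a smaller R837 response in the libraries labelled TBK1-cKD ∆IKKe than in TBK1-WT ∆control, by a test of the difference between the 2 responses. The difference was -0.65 ± 0.22 on the log2 scale (edgeR adjusted p = 0.0487). Rps19 was at 11.1, 13.1 and 14.1 CPM in untreated TBK1-WT ∆control and at 15.1, 24.1 and 20.6 CPM after R837. It was at 15.9, 17.4 and 17.2 CPM in the untreated libraries labelled TBK1-cKD ∆IKKe and at 20.1, 18.3 and 12.0 CPM after R837, where replicate 3 is the library of high nuclear RNA level. The difference was -0.62 with the low-level R837 libraries (adjusted p = 0.00237). It was -0.74 with the high-level libraries alone, where each genotype has 1 R837 library and no replicate check. It missed the threshold with DESeq2 size factors (adjusted p = 0.0653) and in 8 of 12 fits that left out 1 library, in which the adjusted p ran from 0.00652 to 0.155. It kept its direction and its call with the nuclear RNA level as a covariate. The size of that covariate rested on the 1 high-level R837 library of each of these groups. The part of the nuclear RNA level was not tested beyond these fits. Dixon's test for a single outlying value was not run, since every group has 3 libraries.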

How the results depend on the processing

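DESeq2 size factors and its Wald test moved few results. Size factors left 0 members called for the difference of responses in the libraries labelled TBK1-cKD ∆IKKe (17.13% of all genes). The Wald test called 2 members between R837-treated TBK1-cKD ∆control and TBK1-WT ∆control. Without the filter on low counts that last comparison also called 2 (4.55% of all genes). The untreated TBK1-cKD ∆control comparison then called 0 (2.418% of all genes). Without TMM 14, 16 and 4 members rose in TBK1-WT ∆control, TBK1-WT ∆IKKe and the libraries labelled TBK1-cKD ∆IKKe (18.9%, 19.9% and 18.0% of all genes). In the latter 12 fell (53.7% of all genes), with a median of -0.11. After R837 18 members were lower in these libraries than in TBK1-WT ∆control, where 4838 of 14681 genes were lower. For the difference of responses 5 were called (20.97% of all genes). Rpl4 in TBK1-WT ∆control changed by -0.11. The causes of these shifts were not tested.

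With the nuclear RNA level as a covariate 9, 5, 5 and 5 members rose and 2, 2, 3 and 18 fell in the 4 responses, with reversed medians of -0.035 in TBK1-WT ∆IKKe and -0.20 for the libraries labelled TBK1-cKD ∆IKKe. The latter against TBK1-WT ∆control had 4 members called untreated, 15 lower after R837 and 11 called for the difference, and R837-treated TBK1-cKD ∆control had 3 called. The shares of all genes called in these genotype comparisons are not given here, so the counts alone do not set the members apart. Under that covariate in TBK1-WT ∆control Rpl4 changed by -0.020, Rps27l by -0.24 and Rpl9 by 0.21. In TBK1-WT ∆IKKe Rpl9 changed by 0.17, Rps4x by -0.24 and Rps27l by -0.21, and where the label was TBK1-cKD ∆IKKe Rplp0 changed by -0.13. The covariate varied only within R837-treated TBK1-WT ∆control and TBK1-cKD ∆IKKe. Its values for TBK1-WT ∆IKKe and TBK1-cKD ∆control are carried over from those groups.

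With the high-level libraries alone 10 members rose and 4 fell in TBK1-WT ∆control, and 6 rose and 23 fell in the libraries labelled TBK1-cKD ∆IKKe, with a median of -0.16. The genotype comparison of the latter gave 10 called untreated, 13 lower after R837 and 14 called for the difference, the last 2 counts with 1 R837 library of each genotype, which describes those libraries only. In TBK1-WT ∆control Rpl4 changed by -0.010, Rplp1 by -0.0085, Rps27l by -0.22 and Rpl9 by 0.21, and where the label was TBK1-cKD ∆IKKe Rplp0 changed by -0.105. Without the 2 R837 libraries of high level, an alternative chosen after seeing the data, 53 rose and 1 fell in TBK1-WT ∆control and 41 rose and 1 fell in the libraries labelled TBK1-cKD ∆IKKe. The latter then had 4 members called untreated (24.3% of all genes), 10 lower after R837 (15.8% of all genes) and 8 called for the difference. R837-treated TBK1-cKD ∆control had 2 called. The shares of all genes for the counts of 8 and 2 are not given here.

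Leaving out 1 library at a time gave 17 to 47 members up in TBK1-WT ∆control, 0 to 1 down in TBK1-WT ∆IKKe, and 8 to 30 up and 0 to 1 down in the libraries labelled TBK1-cKD ∆IKKe. Against TBK1-WT ∆control it gave 0 to 1 called in untreated and 0 to 2 in R837-treated TBK1-cKD ∆control. For the libraries labelled TBK1-cKD ∆IKKe it gave 2 to 14 lower after R837, with a median from -0.35 to 0.048, and 0 to 6 called for the difference. With all libraries 15.5% of all genes were lower in that R837 comparison and 17.3% were called for the difference. Values of single genes and medians of the members were rated under each alternative. Of these, 681 were rated the same, 77 lost the call, 10 gained it, 23 medians moved by more than the spread between replicates and 18 reversed. A gene rated the same kept its direction and side of the threshold. The direction of a median was rated only in comparisons with more than 1 member called. Elsewhere medians near 0 could change sign without counting as reversed. In the untreated libraries labelled TBK1-cKD ∆IKKe the median went from 0.04 to -0.04 without TMM. The values rated as reversed are those given above. No paired analysis was possible because the labels give no replicate numbers and do not say which libraries share a mouse. How depth limits the calls of the 27 members under 10 CPM was not tested.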
